A study of Mus musculus with 14 samples.

Results

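Hippocampal RNA-seq libraries from mice carrying a kinase-dead form of IRAK4 were compared with libraries from mice with intact IRAK4, across both genetic backgrounds at the same time. All 14 libraries of the series entered this comparison, 7 from mutant mice and 7 from mice with intact IRAK4, with 1 library per mouse and every mouse 10 months of age. On the lupus-prone background, 4 MRL mice (B6.MRL-Faslpr/J, which carry the lpr mutation of the death receptor Fas on C57BL/6) were set against 4 MRL-IRAK4-KD mice, which carry lpr and the mutant kinase. On the other background, 3 C57BL6/J mice were set against 3 mice labelled IRAK4-KD, a strain with the mutant kinase and without lpr, although 1 of the 3 libraries had the Fas transcripts of lpr mice and the values of this background include it. Per the study's methods, the MRL mice and both mutant strains are on a C57BL/6 background and came from another laboratory. The C57BL/6 mice were purchased, and littermates are not mentioned. The mutation therefore cannot be told apart from any other DNA that differs between the strains. Each of the 38070 genes with at least 10 counts in total was fitted with 1 effect of the mutation and 1 of the background, and the log2 fold changes below are mutant over intact, in CPM, counts scaled to library size.

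IRAK4 is the serine/threonine kinase that joins MyD88 at Toll-like receptors and interleukin-1 family receptors, in a complex called the Myddosome. From there the signal passes through IRAK1, IRAK2 and TRAF6 to NF-kB and MAP kinases, which switch on cytokine and chemokine genes. The mutant protein lacks kinase activity, so its mRNA need not change. In the brain this pathway is best known from microglia, astrocytes and the cells of blood vessels.

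Total counts ranged from 279941472 to 572398312 per library. A pair of libraries stood apart. MRL-IRAK4-KD replicate 4 scored 113.4 on the first principal component, which held 49.4% of the variance, while the other 13 libraries lay between -20.1 and 4.68. It also had the fewest counts per sequenced read, at 1.40, and the highest share of counts outside Ensembl genes, at 0.188%. The cause of its distance was not tested. The library labelled IRAK4-KD replicate 3 had 0 counts of the full-length Fas transcript and 514 of the transcript marked for nonsense-mediated decay, which is the pattern of the lpr groups and goes against its label. For mt-Tg, a mitochondrial tRNA, it read 0.746 CPM, beside 0.741 and 0.821 in the other IRAK4-KD libraries and 7.57 to 13.7 in MRL-IRAK4-KD. Its Tmem254c was 3.25 CPM, beside 4.30 and 3.88 in those libraries and 8.01 to 9.69 in MRL-IRAK4-KD. The origin of its Fas pattern was not tested. With MRL-IRAK4-KD replicate 4 and this library both left out, 56 of the 60 genes described next still passed the test.

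At an adjusted p below 0.05, 60 of 38070 genes (0.158%) differed between mutant and intact libraries, 14 higher and 46 lower in the mutant (0.121% of all genes lower). All of them had the same sign in both backgrounds, and in 59 of 60 the mutant and intact libraries did not overlap within either background, Gm26870 being the exception. In 51 of 60 the 7 mutant libraries did not overlap with the 7 intact libraries at all. Over all tested genes these shares were 51.4%, 1.03% and 0.444%. Because the 60 genes were chosen for a difference between these same libraries, the counts describe them and are no further evidence. The 60 genes fell into 3 classes by position. Runs of at least 3 called genes that started within 1 Mb of the next held 28 genes, on chromosomes 4, 1 and 14, with 25 lower and 3 higher. Unplaced scaffolds held 10 genes, all lower, of 39 tested there. The remaining 22 genes were scattered, 11 higher and 11 lower. The median log2 fold change over all genes was -0.0042.

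**Figure D1:**
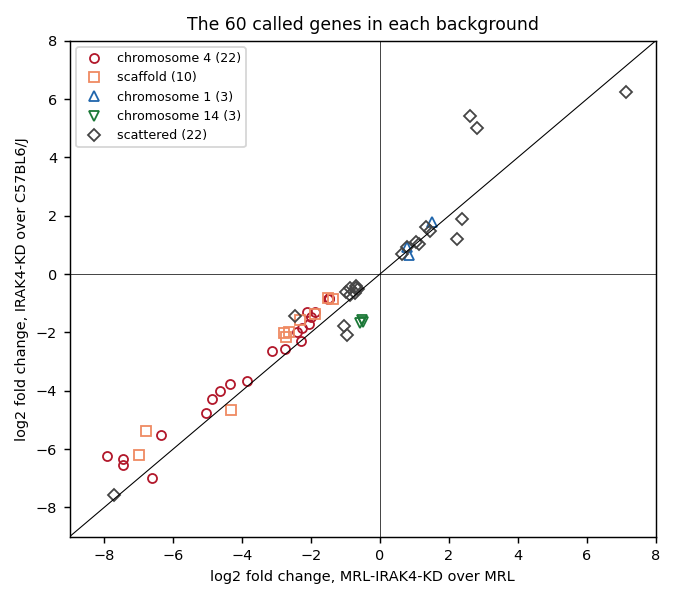
Log2 fold change of the 60 called genes in the lpr background (horizontal axis, MRL-IRAK4-KD over MRL) and in the other background (vertical axis, IRAK4-KD over C57BL6/J), with 1 symbol per gene, shaped by its position class and counted in the legend, and a line of equal values. All 60 lie in the quadrants of equal sign, and the 3 genes of chromosome 14 lie below the line, at -0.49 to -0.58 against -1.59 to -1.67.

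The chromosome 4 genes surround the Ccl21 chemokine genes. CCL21 is the ligand of CCR7 and draws T cells and dendritic cells into lymph nodes. The reference assembly holds several near-identical copies of it. From transcripts of GENCODE M21 on mm10, the 402 coding bases of Ccl21b were identical in Gm10591, Gm13304 and Gm21541, and differed at 2 positions from Ccl21a (A84T and T194C, counted from the first base of the start codon, with the Ccl21b base first). Bases 74 to 204 are shown because they hold both differences, in capitals.
Ccl21b: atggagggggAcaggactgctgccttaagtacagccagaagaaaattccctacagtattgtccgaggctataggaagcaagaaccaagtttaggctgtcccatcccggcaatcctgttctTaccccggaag
Ccl21a: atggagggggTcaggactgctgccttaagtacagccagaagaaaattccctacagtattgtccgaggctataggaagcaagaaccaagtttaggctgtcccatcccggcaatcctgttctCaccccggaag
Reads from the coding bases of these copies cannot be assigned to 1 of them, so their values per gene are uncertain and they were also summed.

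Summed over the 7 rows of Ccl21b, Ccl21c, Gm10591, Gm13304 and Gm21541, the mutant libraries lay between 0.0562 and 0.176 CPM with a median of 0.105, and the intact libraries between 8.18 and 16.7 with a median of 12.4. The groups were far apart in both backgrounds, and the mutant median was 0.841% of the intact median. Ccl21b on chromosome 4 (42255767 to 42256432, plus strand) had 0.0103 to 0.0225 CPM in mutants and 1.46 to 3.07 in intact libraries, a log2 fold change of -7.04 ± 0.27 (SE) with an edgeR adjusted p of 1.47e-09. Ccl21a, further along the chromosome at 42772860, lay between 0.0250 and 0.156 CPM in mutants and between 0.0624 and 0.632 in intact libraries, at -2.52 ± 0.49, and did not pass the test (adjusted p = 0.0662 with edgeR).

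The lower levels were not limited to Ccl21. Between 41809083 and 42612195 on chromosome 4, 22 of 33 tested genes (66.7%) were called, and every one was lower in the mutant. Gm10600, a predicted protein-coding gene, had the smallest p of all genes, with 0.198 to 0.300 CPM in mutants against 5.89 to 8.55 in intact libraries (log2 fold change -4.93 ± 0.14, edgeR adjusted p = 5.47e-11). Gm17167, a processed transcript, fell from 6.42 to 9.73 CPM to 0.456 to 0.689 CPM, by 3.79 on the log2 scale. Gm17081, a pseudogene, fell by 5.96 and Gm13304 by 6.93. Within the same span the Fam205a2, Fam205a3 and Fam205a4 copies differed less, at -1.20 to -1.23, while Gm10591 at its far end was at -7.10. The 10 called scaffold genes included further copies of the same families, namely both scaffold rows of Ccl21b at -6.64 and -4.49, Ccl21c at -6.19, Fam205a2 at -1.20, and the genes AC087559.1 and AC087559.3 at -2.46 and -2.48. Across the 5 Mb on either side of Ccl21b, 217 genes were tested and the same number of 22 was called, so no called gene of that window lay outside the 0.8 Mb span. That edge depends on the threshold. Past it, Fam205a1 at 42848071 stood at -1.05 (adjusted p = 0.0613 with edgeR). Without MRL-IRAK4-KD replicate 4, Fam205a1 and Ccl21a were called, at edgeR adjusted p of 0.0232 and 0.0498.

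**Figure D2:**
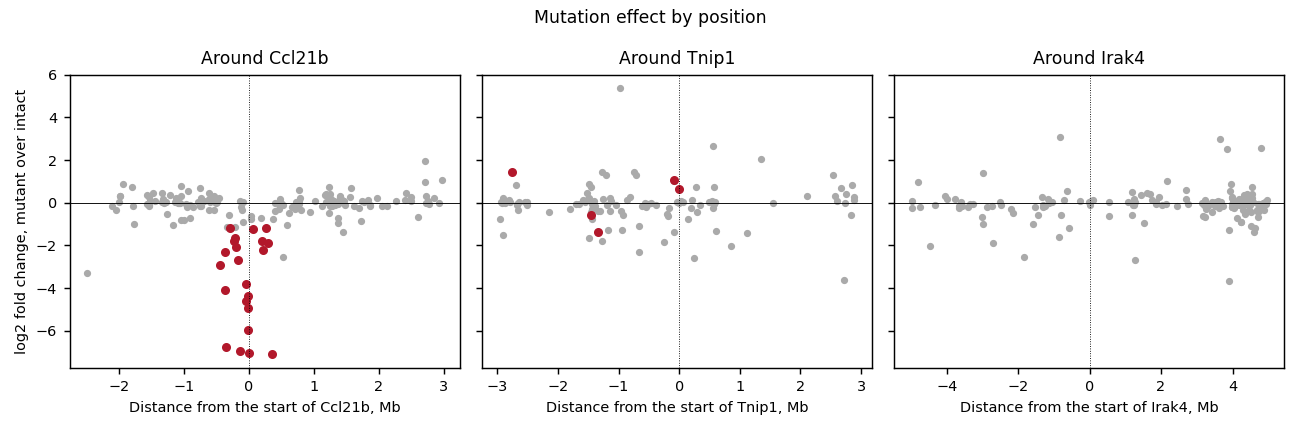
Log2 fold change, mutant over intact, of each tested gene (1 point per gene) against the distance in Mb of its lowest coordinate from that of Ccl21b or Tnip1 (3 Mb either way) or Irak4 (5 Mb either way), with called genes in red and the others in grey. Called genes near Ccl21b reach -7.10 and are all below 0, those near Tnip1 lie on both sides of 0, and none is called near Irak4.

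Chromosome 11 held 6 scattered genes between 51898966 and 54910785, where 76 genes were tested (7.89% called). They formed 3 pairs more than 1 Mb apart and so counted as scattered, since a run needed at least 3 genes, and they joined into a single run at a gap of 2 Mb. Lyrm7, which helps to assemble respiratory complex III, and Tnip1, whose product ABIN1 restrains NF-kB together with A20, lie side by side at its far end. Lyrm7 (54826866 to 54860916, minus strand) had 23.9, 29.9, 31.3 and 26.2 CPM in the 4 MRL-IRAK4-KD libraries and 30.4, 29.8 and 31.7 CPM in the 3 IRAK4-KD libraries. The intact libraries read 13.7, 14.7, 12.9 and 12.97 CPM in MRL and 14.02, 14.4 and 14.2 CPM in C57BL6/J. Every mutant library lay above every intact one (log2 fold change 1.07 ± 0.07, edgeR adjusted p = 8.91e-07, 2.09-fold), and the increase was 1.04 in the lpr background and 1.11 in the other. Tnip1 ranged from 24.7 to 31.2 CPM in mutants, with a median of 30.4, and from 17.2 to 20.1 in intact libraries, with a median of 18.5. It rose 1.58-fold (0.66 ± 0.07, edgeR adjusted p = 0.000142), at 0.65 and 0.67 in the 2 backgrounds.

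The other 4 genes of that stretch moved both ways. The noncoding gene Gm39822 rose (1.47 ± 0.14, 4.93 to 8.40 against 2.06 to 2.99 CPM), as did the olfactory receptor pseudogene Olfr1372-ps1 (1.46 ± 0.21). Shroom1, an actin-binding protein, fell by 0.56 ± 0.09, with 3.70 to 5.39 CPM in mutants and 5.02 to 7.996 in intact libraries, which overlapped across backgrounds but not within them. A430108G06Rik, a transcript next to the kinesin gene Kif3a, fell by 1.37 ± 0.22. MRL-IRAK4-KD replicate 4 had the lowest Gm39822 and Olfr1372-ps1 and the highest A430108G06Rik of the 4 MRL-IRAK4-KD libraries. Without it, 15 of 116 tested genes in this stretch and the 1 Mb on either side were called (12.9%), 5 higher and 10 lower, among them Kif3a at -0.58 (adjusted p = 0.000658 with edgeR), the oocyte growth factor Gdf9 at -1.89, the carnitine and ergothioneine transporter gene Slc22a4 at -0.50 and Cdc42se2 at -0.47. In all 14 libraries Kif3a stood at -0.40 (adjusted p = 0.465 with edgeR), as the library left out read 187.7 CPM, above the highest intact library at 149.8. Over all genes, that setting called 103 lower genes of 37836 (0.272%).

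On chromosome 1, 3 of the 6 genes tested between 186087731 and 186705695 were called, all higher. Tgfb2 encodes transforming growth factor beta 2. It had 65.1 to 89.2 CPM in mutants (median 80.3) and 33.0 to 63.2 CPM in intact libraries (median 49.5), without overlap, although C57BL6/J replicate 3 at 63.2 came close to MRL-IRAK4-KD replicate 2 at 65.1. The log2 fold change was 0.75 ± 0.12 (edgeR adjusted p = 0.0168), and the call was kept in 9 of 14 fits with a library left out (adjusted p up to 0.0599). Gm29491, an antisense transcript that starts next to Tgfb2 on the opposite strand, rose by 1.62 ± 0.20, but its level was 0.241 to 0.572 CPM in mutants, and the counting is not stated to use strand. Lyplal1, a lysophospholipase-like hydrolase, rose from 3.27 to 4.49 CPM to 5.73 to 8.81 CPM (0.84 ± 0.11, adjusted p = 0.00318 with edgeR).

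On chromosome 14, the called genes were 3 copies of 1 gene. Tmem254a, Tmem254b and Tmem254c, which encode a small membrane protein of little known function, stand within 0.28 Mb among 12 tested genes. Since they are tandem copies, their reads may be split between them. Tmem254c read 9.69, 8.28, 8.77 and 8.01 CPM in MRL-IRAK4-KD and 4.30, 3.88 and 3.25 CPM in IRAK4-KD, against 13.5, 13.6, 12.98 and 11.8 CPM in MRL and 10.7, 12.7 and 12.9 CPM in C57BL6/J. The mutant libraries of both backgrounds lay below all intact ones, and IRAK4-KD lay well below MRL-IRAK4-KD. Its log2 fold change was -0.58 in the lpr background and -1.67 in the other, -1.04 ± 0.17 pooled (adjusted p = 0.0171 with edgeR). All 3 copies lost their call without IRAK4-KD replicate 1 (edgeR adjusted p of 0.126, 0.108 and 0.074 for Tmem254a, Tmem254b and Tmem254c) and with no background term (0.209, 0.266 and 0.204). Over the 14 fits with a library left out they were called in 6, 8 and 12. In the fit of 4 group means, which gives each background its own effect, the edgeR adjusted p of the mean effect was 1.61e-05, 4.07e-05 and 1.61e-05. In that fit it was 3.16e-05, 7.93e-05 and 3.96e-05 for IRAK4-KD over C57BL6/J. For MRL-IRAK4-KD over MRL it was 0.239, 0.26 and 0.153. The test of that difference between backgrounds did not pass for any of the 3 copies (adjusted p of the interaction 0.0657 to 0.217 with edgeR).

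Irak4 itself and its surroundings gave no call. Irak4 (chromosome 15, 94543643 to 94581815, plus strand) had a log2 fold change of -0.11 ± 0.13 (adjusted p = 0.803 with edgeR), and its mRNA level is no check of a kinase-dead allele. Of 158 genes tested within 5 Mb of it, 0 were called by edgeR, while 18 reached an unadjusted p below 0.05, 5 higher and 13 lower. Around Fas, on chromosome 19, 0 of 135 genes were called by edgeR and 2 higher and 13 lower reached that unadjusted level. Over all genes, 5.28% were lower and 4.22% higher at an unadjusted p below 0.05.

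Among the scattered genes, Atf4 and Adm2 lie on chromosome 15 as well, 14.3 Mb and 5.22 Mb from Irak4. ATF4 is the transcription factor of the integrated stress response, which raises amino acid transport and tRNA charging when translation is held back. Its mRNA stood at 81.9, 78.6, 79.5 and 60.6 CPM in MRL-IRAK4-KD and at 81.6, 79.8 and 67.2 CPM in IRAK4-KD. The MRL libraries had 109, 130, 124 and 107 CPM, and the C57BL6/J libraries 95.5, 111 and 118 CPM. Every mutant library was below every intact one, and Atf4 fell by 0.59 ± 0.09 on the log2 scale (edgeR adjusted p = 0.00844), by 0.65 in the lpr background and by 0.51 in the other. Adm2, the peptide adrenomedullin 2, had 0 counts in all 7 mutant libraries and 13 to 59 counts in each intact library. Had the 7 mutant libraries held 3 counts together, it would be 57.1-fold lower, at a level of only 0.0582 CPM in the pooled intact libraries. That is no strict bound, since these counts derive from coverage. Adm2 was called (edgeR adjusted p = 0.0165) but not with the replicate block (0.111), and DESeq2 gave it no adjusted p.

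A list of 42 genes, Atf4 and its known targets, was written after these calls had been seen, so its counts are a description. Of 41 tested, 2 were called (Atf4 and Adm2), where 0.121% of all genes were called lower. At an unadjusted p below 0.05, 13 were lower and 0 higher, beside 5.28% and 4.22% of all genes. The median log2 fold change was -0.12 beside -0.004 for all genes. Without MRL-IRAK4-KD replicate 4, where 0.272% of all genes were called lower, 10 members were. They were Atf4, Adm2, the cationic and neutral amino acid transporter genes Slc7a1, Slc7a3, Slc7a5 and Slc1a4, the glutathione-degrading enzyme Chac1, the mitochondrial folate enzyme Mthfd2, the stress protein Nupr1 and the cysteinyl-tRNA synthetase Cars. In all 14 libraries Chac1 had 2.21 to 3.32 CPM in mutants and 3.64 to 5.75 in intact libraries (-0.56 ± 0.11, adjusted p = 0.0621 with edgeR), and Slc7a3 had 2.37 to 5.88 against 5.94 to 11.2 CPM (-0.91 ± 0.18, adjusted p = 0.0751 with edgeR). Neither gene overlapped between the groups, which held for 0.444% of all genes. Nupr1 overlapped, with 9.49 CPM in MRL-IRAK4-KD replicate 4 and at most 7.48 CPM in the intact ones.

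ATF4 with a C/EBP partner binds the composite element TGATGNAA. In RefSeq promoters of GRCm38.p6, 250 bases before to 50 after each start, those letters stood on either strand for 4.51% of 27025 gene symbols and for 14 of the 33 list members found in that table (42.4%). Of the 7 members called without MRL-IRAK4-KD replicate 4 that the table held, 3 had it, and the 60 bases around it are shown with the element in capitals. In all 3 it lies on the opposite strand.
Chac1 (chr2:119351023-119351082, plus strand): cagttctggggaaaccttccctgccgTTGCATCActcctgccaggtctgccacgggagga
Slc1a4 (chr11:20332684-20332743, minus strand): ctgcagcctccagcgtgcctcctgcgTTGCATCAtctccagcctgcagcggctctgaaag
Nupr1 (chr7:126625547-126625606, minus strand): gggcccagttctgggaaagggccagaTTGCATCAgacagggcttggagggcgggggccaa
The element starts 193 bases before the start in Chac1, 4 before it in Slc1a4 and 110 before it in Nupr1. A match in letters is a description and was not tested for binding.

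4 further scattered genes that fell are known from the endothelium of brain vessels. Flt1 encodes VEGF receptor 1, Tie1 a receptor of the angiopoietin system, Ptprb the phosphatase VE-PTP and Slco1a4 an organic anion transporter of the blood-brain barrier. Flt1 had 47.0, 44.7, 42.7 and 73.8 CPM in MRL and 29.0, 36.2, 26.6 and 34.0 CPM in MRL-IRAK4-KD. In C57BL6/J it had 33.8, 29.3 and 26.9 CPM, and in IRAK4-KD 17.4, 21.2 and 18.4 CPM. The mutant was lower in each background without overlap, but MRL-IRAK4-KD lay at the level of C57BL6/J, so that mutant and intact libraries overlapped across backgrounds. The log2 fold changes were -0.70 ± 0.12 for Flt1, -0.79 ± 0.13 for Tie1, -0.60 ± 0.11 for Ptprb and -0.71 ± 0.12 for Slco1a4, with edgeR adjusted p of 0.0334, 0.0215, 0.0422 and 0.0204. Each stayed below 0 when any library was left out, but the calls were kept in 8, 8, 3 and 8 of 14 such fits, and without the library labelled IRAK4-KD replicate 3 the edgeR adjusted p was 0.0968 for Flt1, 0.0688 for Tie1 and 0.0932 for Ptprb. With no background term all 4 lost their call (0.266 to 0.379).

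**Figure D3:**
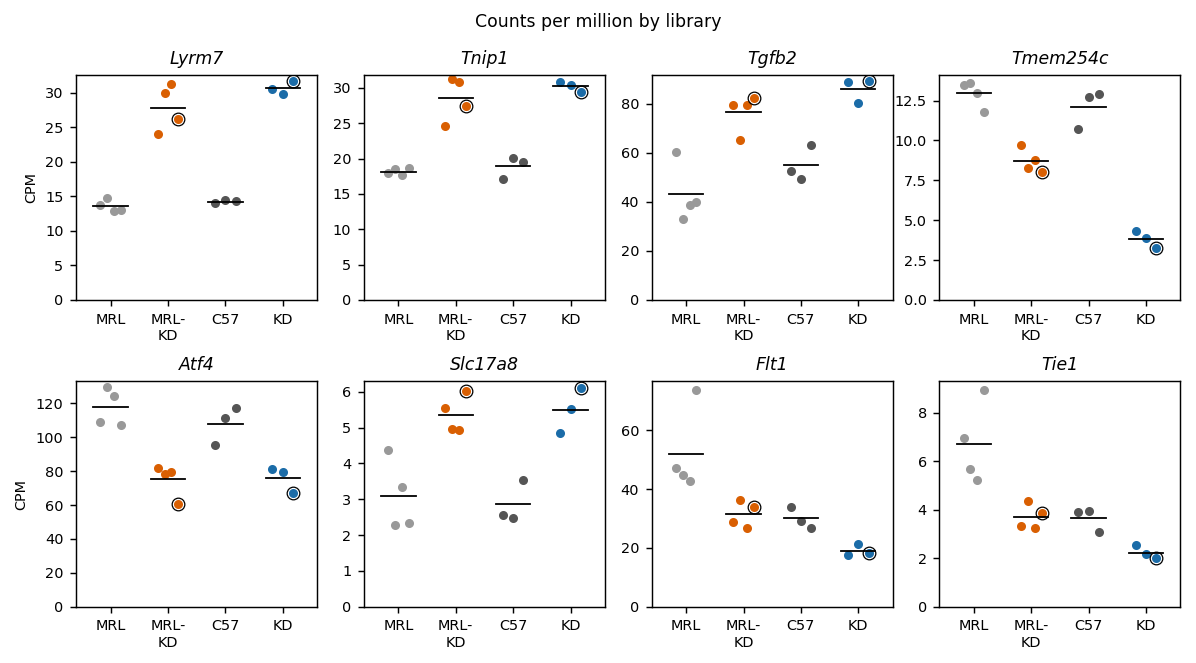
CPM of 8 called genes in each library (vertical axes from 0), grouped as MRL, MRL-IRAK4-KD (MRL-KD), C57BL6/J (C57) and IRAK4-KD (KD), with 1 point per library, a line at the group mean and a ring around MRL-IRAK4-KD replicate 4 and the library labelled IRAK4-KD replicate 3. Lyrm7 and Tnip1 are higher and Atf4 lower in all 7 mutant libraries, Tmem254c is lowest in IRAK4-KD at 3.25 to 4.30 CPM, and Flt1 and Tie1 are lower within each background.

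A list of 40 endothelial genes, also written after the calls were seen, had a median log2 fold change of -0.54 (-0.63 in the lpr background and -0.43 in the other). At an unadjusted p below 0.05, 30 members were lower and 0 higher, beside 5.28% and 4.22% of all genes. The 4 genes above were called, where 0.121% of all genes were called lower. Since the list was written with these calls known, its counts are a description and no further evidence. Summed, the list reached 713 to 1141 CPM in MRL and 510 to 625 in MRL-IRAK4-KD, and 494 to 544 in C57BL6/J and 405 to 447 in IRAK4-KD, again without overlap within either background. Without MRL-IRAK4-KD replicate 4, where 0.272% of all genes were called lower, 9 members were, among them Eng and Tek. Of 15 mural cell genes, 0 were called by edgeR and 7 were lower at an unadjusted p below 0.05 (median -0.23), with Notch3 at -0.42. In whole tissue, fewer vessel cells and less RNA per cell cannot be told apart.

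The remaining scattered genes were mostly of low level. Slc17a8, the vesicular glutamate transporter VGLUT3, rose from 2.29 to 4.38 CPM to 4.86 to 6.10 CPM (0.86 ± 0.15, adjusted p = 0.0344 with edgeR), but kept its call in only 3 of 14 fits with a library left out. The mitochondrial phenylalanine tRNA mt-Tf fell by 0.83 ± 0.14, with 1.10 to 1.89 CPM in mutants. Mid1-ps1, a Y-linked pseudogene whose reads may come in part from its parent Mid1, fell from 3.18 to 7.51 CPM to 0.844 to 2.62 CPM (-2.04 ± 0.24, adjusted p = 0.000813 with edgeR).

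Of the 22 scattered genes, 9 bear only Gm or Rik names. Gm34583, a pseudogene, was 2.12-fold higher, 1700030C10Rik 3.47-fold and Gm45262 4.50-fold higher, and Gm12576 fell by 1.43 on the log2 scale. Gm26870 and Gm11168, which overlap near the start of the chromosome 9 assembly, and Gm21738 on chromosome 14 rose together by library. Gm21738 had 0.681, 0.772, 0.154 and 0.357 CPM in MRL-IRAK4-KD and 0.862, 6.32 and 3.42 CPM in IRAK4-KD, and no intact library exceeded 0.124 CPM. The libraries labelled IRAK4-KD replicates 2 and 3 were the highest for all 3 genes, and MRL-IRAK4-KD replicate 3 the lowest of the mutants.

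No gene of the complex in which IRAK4 acts passed the test. Of 18 Myddosome genes, 0 were called by edgeR and 0 reached an unadjusted p below 0.05. Their log2 fold changes lay between -0.37 (Irak3, the inhibitory member, SE 0.19) and 0.13 (Tab1, SE 0.08), with Irak1 at 0.10 ± 0.10, Irak2 at -0.24 ± 0.16, Myd88 at 0.02 ± 0.09 and Traf6 at -0.08 ± 0.12. The adaptors and regulators Tirap, Tollip, Peli1, Peli2 and Peli3 lay between -0.07 and 0.10. The kinases and partners further along, Map3k7, Tab2, Tab3, Chuk, Ikbkb and Ikbkg, lay between -0.12 and -0.01. Their SEs ran from 0.06 (Ikbkb) to 0.19 (Irak3), which sets the size of change that could have been seen.

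The receptor lists held no call. The Toll-like receptor list had a median of -0.34 over 15 genes (-0.50 in the lpr background and -0.14 in the other). Unc93b1, the chaperone of endosomal receptors, stood at -0.25 and Tlr2 at -0.40. The interleukin-1 family list had a median of -0.25 over 14 genes (-0.39 in the lpr background and 0.09 in the other), with the decoy Il18bp at -0.32 and Sigirr at -0.55. Each held 2 members lower at an unadjusted p below 0.05, beside 5.28% of all genes, and 0 called by edgeR.

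Among 30 NF-kB subunits and targets, Tnip1 was the only gene called, where 14 of all 38070 genes were called higher, and the median was -0.19. At an unadjusted p below 0.05, 5 others were lower, beside 5.28% of all genes. The chemokine Cxcl1 stood at -1.17 ± 0.42 and the adhesion molecule Icam1 at -0.59 ± 0.21. The JAK-STAT list of 20 genes held 0 called by edgeR and 7 lower at an unadjusted p below 0.05, with Socs3, the feedback inhibitor of cytokine receptors, at -1.10 ± 0.30 and the oncostatin M receptor Osmr at -0.62 ± 0.17. The median of the JAK-STAT list was -0.22, at -0.34 in the lpr background and -0.08 in the other. Of 36 chemokine ligands, Ccl21b and Ccl21c were called, where 0.121% of all genes were called lower. Both belong to the Ccl21 copies summed above, whose values per gene are uncertain. At the unadjusted level 9 ligands were lower and 2 higher, beside 5.28% and 4.22% of all genes.

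The interferon list had more members at the unadjusted level than the others of these pathways. Of 48 interferon-stimulated genes, 35 (0 in the other direction) were lower at an unadjusted p below 0.05, beside 5.28% of all genes, yet 0 were called by edgeR and the smallest adjusted p was 0.117. The median was -0.60, at -0.81 in the lpr background and -0.28 in the other. Ddx60, a helicase of antiviral sensing, stood at -0.83 ± 0.18, Mx2 at -0.57 ± 0.13 and Irf7, the regulator of type I interferon, at -0.83 ± 0.19. Summed, the list spanned 290 to 643 CPM in MRL and 242 to 286.5 in MRL-IRAK4-KD, and 232 to 270.0 in C57BL6/J and 207 to 235.5 in IRAK4-KD. The groups were separate, though only just, in the lpr background and overlapped in the other.

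Antigen presentation genes held 7 of 19 lower at the unadjusted level (median -0.51), with the transactivator Nlrc5 at -1.05 ± 0.31, H2-T23 at -0.61 and H2-K1 at -0.66. The median of that list was -0.59 in the lpr background and -0.20 in the other. Complement genes held 3 of 19 (median -0.19), with C4a at -0.34 and C1s1 at -0.69. The immediate early genes, which neurons switch on within minutes of activity, held 12 of 19 lower (median -0.87, at -1.14 in the lpr background and -0.35 in the other), with Junb at -1.07 ± 0.26, Fos at -1.92 ± 0.49 and Egr2 at -2.26 ± 0.59. The edgeR count of calls in each of these 3 lists was 0, and 5.28% of all genes were lower at the unadjusted level. For Fos, the intact libraries spread from 8.99 to 86.2 CPM and the mutants from 2.98 to 10.4 CPM. The summed list spanned 898 to 2092 CPM in MRL and 601 to 887 in MRL-IRAK4-KD, and overlapped in the other background, at 738 to 1097 CPM in C57BL6/J and 802 to 905 in IRAK4-KD.

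**Figure D4:**
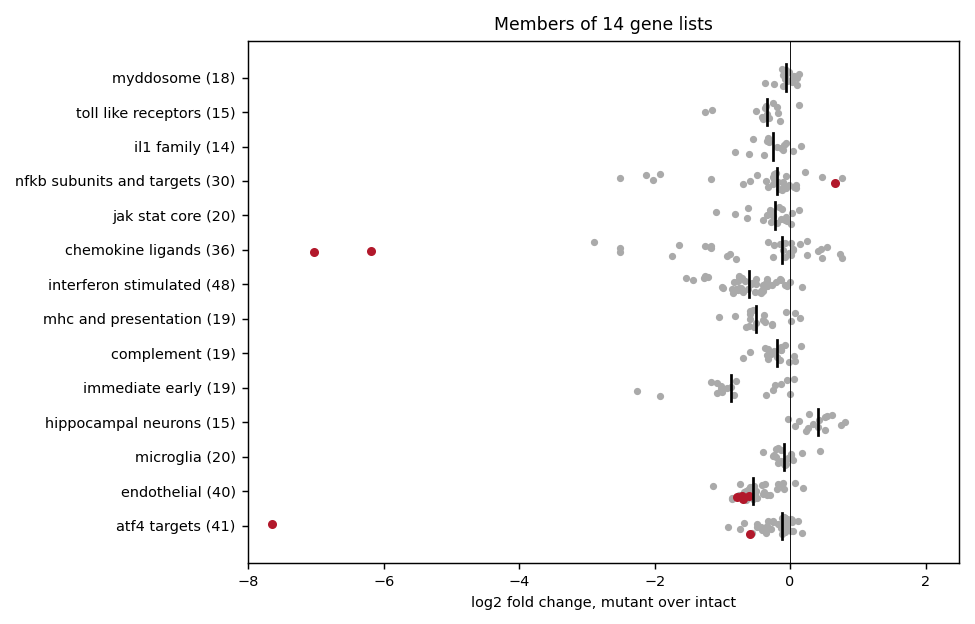
Log2 fold change, mutant over intact, of each tested member (1 point per gene, called genes in red) of 14 gene lists, with a vertical bar at each list's median and the number of members in parentheses. Most interferon, immediate early and endothelial genes lie below 0, with medians of -0.60, -0.87 and -0.54, while the Myddosome genes lie between -0.37 and 0.13.

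Markers of the tissue and of its neighbours stand beside these results. All members of the hippocampal neuron list were detected. Of 15 genes of hippocampal neurons, 10 were higher in the mutants at an unadjusted p below 0.05 but 0 were called by edgeR, with a smallest adjusted p of 0.243 (median 0.42, Spink8 0.75 and Ociad2 0.28), where 4.22% of all genes were, and the list summed to 1393 to 2659 CPM in mutants and 972 to 1667 CPM in intact libraries, which overlapped. Genes of neocortex were lower for 4 of 11 (median -0.46, Cux2 -0.80), where 5.28% of all genes were. Choroid plexus genes had a median of 0.77 with 1 of 16 past the unadjusted level, and ranged from 249 to 8628 CPM in sum, highest in MRL-IRAK4-KD replicate 4. Blood genes were lower for 7 of 15 (median -1.38, Hbb-bt -1.56), although the mice had been perfused, and this list had a median of -1.86 in the lpr background and -0.04 in the other. Pituitary genes ran to -4.78 for Gh, which was at or under 0.348 CPM in mutants and reached 10.9 CPM in 1 intact library. None of these 5 lists held a call by edgeR, and their part in the results above was not tested.

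Counts for the other cell types and 2 further lists stand beside 5.28% of all genes lower and 4.22% higher at an unadjusted p below 0.05. At the unadjusted level, 3 microglial genes were lower and 1 higher of 20 (Fcrls -0.26, median -0.10), 2 astrocyte genes lower and 1 higher of 14 (Cxcl10 -1.26, median -0.12), and 1 oligodendrocyte gene lower and 2 higher of 14 (Enpp6 0.41, median 0.10). Striatal and thalamic genes split 2 and 2 of 16 (Lef1 -0.74, median 0.14), 4 of 16 meningeal and fibroblast genes were lower (Fn1 -0.54, median -0.22) and 2 of 18 lymphocyte genes were lower (Igkc -2.43, median -0.35). Glucocorticoid-responsive genes had 2 lower and 1 higher of 15 (Per1 -0.57, Fkbp5 0.30, median 0.20, or -0.02 without MRL-IRAK4-KD replicate 4), and clock genes 2 lower and 1 higher of 18 (Dbp 0.22, median -0.12). The edgeR count of calls in each was 0. In sum, microglial genes reached 3992 CPM in MRL-IRAK4-KD replicate 4, against at most 1911 in intact libraries. Striatal and thalamic genes reached 772.7 CPM in the library labelled IRAK4-KD replicate 3, against at most 345.6 in intact libraries. The part of these levels in the results above was not tested.

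Genes known to vary between substrains of C57BL/6 also differed between libraries. C57BL/6J mice carry a deletion in Nnt, the mitochondrial transhydrogenase, and a variant that lowers Gabra2, a GABA-A receptor subunit. Nnt had 38.1, 39.2 and 38.7 CPM in IRAK4-KD and 2.17, 12.2 and 1.38 CPM in C57BL6/J. In MRL-IRAK4-KD it had 37.4, 0.842, 1.26 and 16.0 CPM, and in MRL 1.18, 7.89, 12.7 and 12.7 CPM. The 3 IRAK4-KD libraries and MRL-IRAK4-KD replicate 1 were high, and the lowest values stood in 3 of the 4 groups. Pooled, its log2 fold change was 1.61 ± 0.85 and was not called (adjusted p = 0.571 with edgeR).

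Gabra2 lay between 338 and 412 CPM in IRAK4-KD and between 153 and 174 CPM in C57BL6/J, and between 300.5 and 551 CPM in MRL-IRAK4-KD and between 251 and 301 CPM in MRL. It was just short of a call (0.79 ± 0.15, adjusted p = 0.0542 with edgeR). Wdfy1 had 53.0 to 56.1 CPM in IRAK4-KD against 21.3 to 22.3 in C57BL6/J, but 33.3 to 52.4 CPM in MRL and 50.7 to 83.1 CPM in MRL-IRAK4-KD (0.81 ± 0.17, adjusted p = 0.108 with edgeR). Entpd4 was at 26.3 to 29.1 CPM in IRAK4-KD and 43.9 to 50.1 CPM in C57BL6/J, and at 27.7 to 47.4 CPM in MRL and 30.7 to 32.0 CPM in MRL-IRAK4-KD (-0.38 ± 0.14). Crb1 stood at -0.88 ± 0.25, Nlrp12 at -0.59, Cyfip2 at -0.08 and Ide at 0.00. The edgeR count of calls in this list of 8 was 0, with 2 higher and 2 lower at an unadjusted p below 0.05. Over all genes, 4.22% were higher and 5.28% lower at that level.

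**Figure D5:**
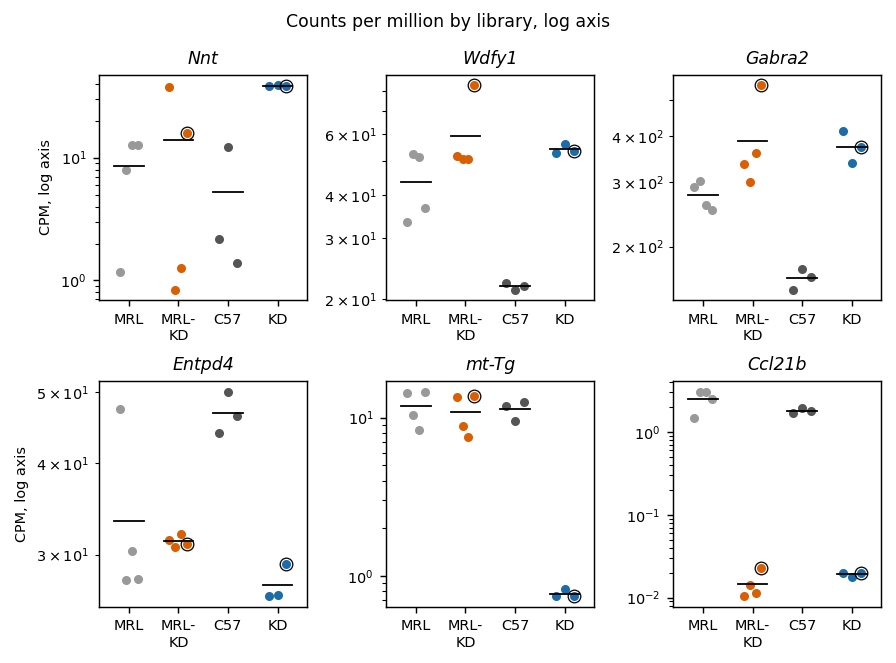
CPM on log axes of 4 genes that vary between C57BL/6 substrains, of mt-Tg and of Ccl21b, in each library of MRL, MRL-IRAK4-KD (MRL-KD), C57BL6/J (C57) and IRAK4-KD (KD), with lines at group means and rings around MRL-IRAK4-KD replicate 4 and the library labelled IRAK4-KD replicate 3. Nnt is at 38.1 to 39.2 CPM in all IRAK4-KD libraries and uneven elsewhere, mt-Tg is low in IRAK4-KD alone, and Ccl21b is low in both mutant groups.

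Whether the difference of mutant over intact was unequal in the 2 backgrounds was tested as an interaction. Of 38070 genes, 1 passed (0.00263%). The mitochondrial glycine tRNA mt-Tg had a log2 fold change of -0.12 ± 0.21 in the lpr background and -3.88 ± 0.28 in the other, a difference of 3.75 ± 0.34 (adjusted p = 0.00127 with edgeR). It had 0.741 to 0.821 CPM in IRAK4-KD and 7.57 to 13.7 in MRL-IRAK4-KD, beside 8.33 to 14.6 in MRL and 9.49 to 12.5 in C57BL6/J. A background-dependent effect of the mutation cannot be told apart here from other DNA of the IRAK4-KD strain. None of the 60 called genes passed the interaction test, and 7 of them reached an unadjusted p below 0.05 in it, beside 1588 of all 38070 genes.

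Exact stratified permutation tests of single genes, 2-sided and over 1400 arrangements within backgrounds, gave the smallest p they can reach, 0.00143, for Lyrm7, Tnip1, Tgfb2, Tmem254c, Atf4, Flt1, Tie1, Slc17a8 and Ccl21b alike. These genes had been chosen from the same libraries, so the value neither ranks them nor adds to the edgeR result. The edgeR p-values of the pooled effect rest on the spread left by the model of background and mutation. That spread holds differences between mice within groups and any inequality of the effect between backgrounds. When each library was left out in turn, 35 of the 60 genes were called every time, 26 of the 38 clustered and scaffold genes and 9 of the 22 scattered ones, among them Lyrm7, Tnip1, Gm39822, Atf4 and Mid1-ps1.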

How the data were processed

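Per the labels and the study's notes, poly(A) RNA of hippocampus was sequenced, aligned to mm10 with HISAT2 2.1.0 and quantified with StringTie 2.1.0, and the authors deposited raw count tables of whole numbers for genes and transcripts. StringTie derives such counts from coverage, and totals came to 1.40 to 2.08 counts per read of the sequencing sheet, so counting error is not that of independent molecules. Deposited read totals were 148569712 to 299836957 per library. The library kit and read layout differ between the paper's methods and the labels. Of 81881 features, 55536 Ensembl genes were used, all placed with GENCODE M21, while 26248 tRNA predictions and 97 spike-ins (at most 0.188% of counts) were left out.

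Genes reaching 10 counts over all libraries were tested with edgeR 4.0.16 in R 4.3.3 (TMM, robust quasi-likelihood, background plus mutation), with Benjamini-Hochberg adjustment over 38070 genes. "Called" means an adjusted p below 0.05. The effects per background and the interaction were contrasts in a single fit of 4 group means over all 14 libraries, which share an estimate of the spread. Permutation tests used log2(CPM + 0.1). A cluster is at least 3 called genes on a chromosome with starts at most 1 Mb apart. Named genes are Irak4, Fas, up to 5 genes per cluster with the smallest p, the scattered called genes, called list members, up to 3 others per list, and the Myddosome and substrain lists, while the ATF4, endothelial and mural lists and genes that became called without 1 library were chosen after values were seen. Members and lists were chosen with earlier results of these data known. Replicate numbers did not pair the mice. Alternatives were RLE size factors, DESeq2 1.42.0, limma-voom 3.58.1 with quality weights, no filter, filterByExpr, 4 group means, no background term, a replicate block, each library left out, other cluster rules and other thresholds.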

Additional observations from a re-analysis of the deposited data

Results flagged for a closer look

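The following values stood out by a gap test within groups of 4 libraries, in which chance flags about 1 in 20 groups, or by a test between backgrounds. MRL-IRAK4-KD replicate 4 scored 113.4 on the first principal component, far from the rest of its group. It also had the lowest Atf4 of its group, at 60.6 CPM against 78.6 to 81.9, and the highest Wdfy1, at 83.1 CPM against 50.7 to 51.8. MRL replicate 4 had the highest Flt1, at 73.8 CPM against 42.7 to 47.0 in the other MRL libraries, and the highest scaffold copy of Ccl21b, at 0.332 CPM against 0.0581 to 0.102. MRL-IRAK4-KD replicate 3 was high for Lyplal1, at 8.81 CPM against 5.73 to 6.08, and MRL-IRAK4-KD replicate 2 was low for Tgfb2, at 65.1 CPM against 79.5 to 82.4. Entpd4 was 47.4 CPM in MRL replicate 1 and 27.7 to 30.3 CPM in the other MRL libraries. The difference of mutant over intact in mt-Tg was unequal between the backgrounds by 3.75 on the log2 scale (edgeR adjusted p = 0.00127), with low values in IRAK4-KD alone.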

How the results depend on the processing

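The count of 60 called genes depended on the tool more than on scaling. DESeq2 called 519 (180 higher, 339 lower, with 171 in clusters and 338 scattered) and limma-voom with quality weights 290 (115 higher, 175 lower, 72 in clusters, 207 scattered), and 59 and 58 of the 60 were among them. With 4 group means 22 were higher and 35 scattered, at an adjusted p below 0.1 there were 99 calls with 32 higher, and clusters of 2 or more genes left 14 scattered. Without MRL-IRAK4-KD replicate 4 and the library labelled IRAK4-KD replicate 3 there were 104 (31 higher, 73 lower, 47 in clusters, 47 scattered). Leaving out 1 library gave 40 to 154 calls, 8 to 51 higher, 30 to 103 lower, 18 to 58 in clusters, 7 to 10 on scaffolds and 13 to 86 scattered. The highest counts came without MRL-IRAK4-KD replicate 4 (all 60 called), and the lowest without C57BL6/J replicate 2 or IRAK4-KD replicate 1 (40 each). The interaction had 59 calls with DESeq2, 2 with the replicate block and 1 to 15 with a library left out, 15 without MRL-IRAK4-KD replicate 4, 6 without MRL replicate 1, 3 without MRL-IRAK4-KD replicate 1 and 2 without MRL replicate 4 or MRL-IRAK4-KD replicate 2. Without MRL replicate 1, 25 genes were higher and 35 scattered. The causes of these differences were not tested.

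The replicate numbers correlated between -0.103 and 0.295 from group to group, and with the replicate block 58 genes were called, of which 49 were among the 60 and Tmem254a, Tmem254b and Tmem254c were not (edgeR adjusted p of 0.0941, 0.0839 and 0.0605). Over 25 named genes and 23 settings no log2 fold change changed sign where the gene was called. The list medians ranged from -0.71 to -0.40 for interferon genes, from -0.99 to -0.54 for immediate early genes, from -0.61 to -0.45 for endothelial genes and from -0.19 to -0.08 for ATF4 targets. Of 574 such values, 471 kept their side of the threshold, 87 lost a call and 16 gained one. Ptprb lost its call in 14 settings and Slc17a8 in 13, while Atf4, Lyrm7 and Tnip1 lost theirs in 0. Low genes such as Adm2, with 178 counts in all, are limited by depth.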
